A study of Mus musculus with 16 samples.

Results

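Canonical WNT feedback targets are genes that active WNT signalling switches on and whose products then act back on the pathway or carry its message further. The set described here comprised 8 genes, Axin2, Nkd1, Lgr5, Tnfrsf19, Lef1, Tcf7, Sp5 and Cdx1, chosen by name. Gene probes whose name in the array files equalled one of these symbols were taken, which gave 13 of 41174 gene probes. Of these, 11 passed the filter used here, a signal well above background on 2 or more of the 16 arrays, and all 8 genes were among the 23161 genes tested, out of 27670 gene names on the array.

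RNA of mouse pluripotent stem cell cultures was measured on 16 one-colour Agilent arrays in 7 groups. The NOD lines, from the non-obese diabetic mouse strain, were the EpiSC-like iPS line 6 (passages 7 and 12), the EpiSC-like ES line 1 (passages 5, 7, 9 and 10) and 3 ES cultures titled 4K, 43 KP/CH and 85 KP. The non-NOD lines were 2 EpiSC iPS cultures titled 3M and 1K, EpiSC at passages 12 and 20, 1 culture of 129 ES cells titled epiESM and 2 arrays of 129 ES cells titled mESM, both at passage 8. The titles name no strain for EpiSC and EpiSC iPS, so EpiSC and mESM may differ in strain. Embryonic stem (ES) cells model the naive pluripotency of the early embryo, epiblast stem cells (EpiSC) model the primed pluripotency of the epiblast after implantation, and iPS cells are reprogrammed from other cells. KP and CH were inhibitors of the kinase GSK3 in the study, kenpaullone and a CHIR compound, and what 4K, 3M, 1K, mESM and epiESM stand for was not given in the sources at hand. Embryonic fibroblasts, on which such cells are grown, had been removed from ES cultures by preplating on gelatin, and EpiSC and EpiSC-like colonies had been lifted off mechanically, per the labels' protocols. Each EpiSC-like group is thus 1 line at several passages, and the pair of mESM arrays has a single source label. The p-values therefore measure the spread between these arrays, which may be technical.

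A WNT ligand binds a Frizzled receptor and the co-receptors LRP5 and LRP6 at the cell surface and stops the destruction complex, in which Axin and APC hold beta-catenin for phosphorylation by GSK3. Beta-catenin then builds up and joins TCF/LEF proteins on DNA, and an inhibitor of GSK3 acts on the same step from inside the cell. In mouse ES cells this arm relieves repression by Tcf7l1 and helps to hold the naive state, while in EpiSC and the epiblast it is tied to the primitive streak.

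TCF/LEF proteins bind short words around CTTTGA. The words CTTTGAT and CTTTGAA were looked for on both strands, as ATCAAAG and TTCAAAG on the other strand. Each window was the 250 bases before an annotated start in the RefSeq table of build GRCm38.p6. For the members, windows on the chromosome of Cdx1 were left out, and 6 of the 8 genes had windows. The shares over all genes keep that chromosome. CTTTGAT was in 3.21% and CTTTGAA in 4.46% of 32817 windows of that length over all genes, and 7.48% held either. Of the 11 windows of the members, 2 held a match, 1 each for Sp5 and Tnfrsf19. These are shown with the window of Axin2, which held none, because these 3 genes were called in the same direction as each other in 4 of the comparisons of groups that follow, with the matched word in capitals. The Sp5 window lies at chr2:70474673-70474922 on the plus strand and its word starts 104 bases before the start. The Tnfrsf19 window lies at chr14:61037988-61038237 on the minus strand and its word, on the opposite strand, begins 202 bases before the start. The Axin2 window lies at chr11:108920099-108920348 on the plus strand. A match is a description of letters only, and no match says only that these letters are not in that window.
Sp5: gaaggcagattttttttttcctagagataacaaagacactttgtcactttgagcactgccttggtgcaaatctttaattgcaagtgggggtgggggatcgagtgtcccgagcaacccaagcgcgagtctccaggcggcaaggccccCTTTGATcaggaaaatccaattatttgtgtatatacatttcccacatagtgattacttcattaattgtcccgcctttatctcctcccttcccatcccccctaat
Tnfrsf19: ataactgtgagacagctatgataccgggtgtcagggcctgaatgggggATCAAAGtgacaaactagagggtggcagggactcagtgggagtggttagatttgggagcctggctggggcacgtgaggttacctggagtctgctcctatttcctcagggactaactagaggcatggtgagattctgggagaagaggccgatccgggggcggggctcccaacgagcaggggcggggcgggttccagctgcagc
Axin2: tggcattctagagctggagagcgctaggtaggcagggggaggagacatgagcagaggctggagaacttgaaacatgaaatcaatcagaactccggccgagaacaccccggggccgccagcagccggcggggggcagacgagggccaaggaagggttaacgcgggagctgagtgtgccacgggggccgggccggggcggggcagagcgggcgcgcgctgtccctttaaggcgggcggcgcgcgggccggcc

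A level below is log2 of the processed spot signal minus the 75th percentile of the gene probes on the same array, so that 0 is that percentile and 1 unit is a 2-fold change. Levels of different genes come from different probes and are not set against each other. On single arrays 26.3% to 88.5% of gene spots exceeded background clearly by the scanner's flag, and no gene spot was saturated. A difference was called, and is said to have risen or fallen, where limma gave a Benjamini-Hochberg adjusted p under 0.05 over all genes tested, with all 16 arrays in 1 model. Where groups are said not to overlap, this describes the named genes only, since the share of all genes without overlap was not counted. In bulk RNA, fewer cells of a type and less RNA per cell cannot be told apart. The label check genes went mostly with the labels. Zfp42, a naive marker, stood between 4.51 and 6.46 in NOD ES, EpiSC iPS and 129 ES cultures and between -7.03 and -2.71 in EpiSC-like lines and EpiSC. Fgf5, a primed marker, stood at 2.92 and 2.95 in EpiSC and between 0.87 and 1.22 in the EpiSC-like ES line, against -2.27 and -2.19 in the EpiSC-like iPS line. Pou5f1, the gene of the pluripotency factor OCT4, reached only -4.42, not well above background, and -3.40 in the EpiSC-like iPS line, against -1.52 to -0.62 in the EpiSC-like ES line. The EpiSC iPS cultures held naive markers at ES levels, so their name is used here as a label only.

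Both titled groups of mixed cultures had an array that stood apart. The NOD ES array 4K was nearest to the EpiSC iPS array 3M, with an SD of log2 differences of 0.697, against 1.13 and 1.15 to the other NOD ES arrays. The EpiSC iPS array 1K was nearest to the NOD ES arrays 43 KP/CH and 85 KP, at 0.387 and 0.397, against 0.963 to 3M. The pair 43 KP/CH and 85 KP differed by 0.294 and the mESM pair by 0.20. The array 4K had the smallest share of spots above background, and a spot had to reach about -0.37 there. Counts are therefore given with all arrays and without 4K and 1K. Calls over all genes ran from 919 to 9927 per comparison with all arrays and from 5745 to 12590 without these. They were fewer in 0 of 12 comparisons, so more targets called without 4K and 1K go with a general rise in calls.

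Axin2 (chromosome 11, 108917828 to 108950783, GRCm38.p6) encodes a scaffold of the destruction complex that is itself induced by WNT and limits the signal. Its level was -3.40 and -4.20 in the EpiSC-like iPS line at passages 7 and 12, 0.37, -0.08, -0.13 and 0.16 in the EpiSC-like ES line at passages 7, 10, 5 and 9, and -2.46, -0.68 and -0.80 in NOD ES 4K, 43 KP/CH and 85 KP. In the non-NOD cultures it was -0.01 and -0.52 in EpiSC iPS 3M and 1K, 0.23 and 0.16 in EpiSC at passages 12 and 20, 2.15 in epiESM and -1.42 and -1.46 in mESM. The epiESM culture was the highest and the EpiSC-like iPS line the lowest, with passage 12 of that line and 4K not well above background. EpiSC, the EpiSC-like ES line and EpiSC iPS overlapped in the order of levels, as did NOD ES and mESM.

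Nkd1 (chromosome 8, 88521342 to 88594887) encodes a protein that binds Dishevelled and damps the WNT signal. Levels were -0.62 and -1.11 in the EpiSC-like iPS line, 0.84, 0.59, 0.64 and 0.90 in the EpiSC-like ES line, and -1.40, -3.37 and -3.40 in NOD ES. They were -1.95 and -3.88 in EpiSC iPS, 1.28 and 1.13 in EpiSC, -1.31 in epiESM and -1.63 and -1.84 in mESM. Nkd1 was thus highest in EpiSC and next highest in the EpiSC-like ES line, and unlike Axin2 it was not high in epiESM. The spots of 4K and 1K were not well above background, and mESM, NOD ES and EpiSC iPS overlapped.

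Lgr5 (chromosome 10, 115450314 to 115587780) encodes a receptor for R-spondins, secreted proteins that keep Frizzled receptors at the surface. It stood at -3.47 and -3.45 in the EpiSC-like iPS line, at -0.78, -1.02, -1.38 and -1.49 in the EpiSC-like ES line and at -2.53, -5.32 and -4.92 in NOD ES. In EpiSC iPS it stood at -1.64 and -4.15, in EpiSC at 0.20 and -0.06, in epiESM at -1.73 and in mESM at -7.08 and -6.98. No spot of NOD ES or mESM was well above background, nor were passage 12 of the EpiSC-like iPS line and 1K. EpiSC was highest with no overlap with the EpiSC-like ES line below it, whereas epiESM, EpiSC iPS, the EpiSC-like iPS line and NOD ES overlapped in turn.

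Tnfrsf19 (chromosome 14, 60963834 to 61046855), also called Troy, encodes a receptor of the TNF receptor family that is a WNT target in several stem cells. Its levels were -0.60 and -0.50 in the EpiSC-like iPS line, 1.67, 1.67, 1.74 and 1.54 in the EpiSC-like ES line and -0.72, 0.26 and 0.33 in NOD ES. Its levels were 0.47 and 0.17 in EpiSC iPS, 1.27 and 1.78 in EpiSC, 1.27 in epiESM and -1.66 and -1.59 in mESM. The EpiSC-like ES line, EpiSC and epiESM overlapped at the top, mESM was lowest with no overlap, and 4K was not well above background.

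Lef1 (chromosome 3, 131110297 to 131224357) and Tcf7 (chromosome 11, 52246527 to 52283383) encode HMG-box factors through which beta-catenin acts on DNA. Lef1 was at -1.66 and -2.0 in the EpiSC-like iPS line, at 0.37, -0.19, 0.30 and 0.12 in the EpiSC-like ES line and at 1.38, -0.21 and -0.36 in NOD ES. Lef1 was at 2.28 and -0.63 in EpiSC iPS, at 1.75 and 1.79 in EpiSC, at 3.21 in epiESM and at -0.45 and -0.50 in mESM. The titled pairs split, with 3M far above 1K and 4K above the KP arrays, so that EpiSC iPS overlapped EpiSC and NOD ES. Tcf7 was at -2.86 and -2.30 in the EpiSC-like iPS line, at -0.89, -0.93, -1.09 and -1.10 in the EpiSC-like ES line and at -1.42, 0.26 and 0.20 in NOD ES. In the non-NOD cultures Tcf7 was at 0.13 and 0.33 in EpiSC iPS, -0.38 and -0.23 in EpiSC, 0.93 in epiESM and 0.39 and 0.45 in mESM. Tcf7 had a higher mean in mESM than in EpiSC and both EpiSC-like lines, which among the other targets held for Cdx1 alone, and its spot on 4K was not well above background.

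Sp5 (chromosome 2, 70474923 to 70477726) encodes a zinc-finger factor induced directly by beta-catenin. It was at -2.91 and -3.20 in the EpiSC-like iPS line, at 1.08, 0.90, 0.87 and 0.95 in the EpiSC-like ES line and at 1.84, -0.72 and -0.89 in NOD ES. Among the non-NOD cultures it was at 1.25 and -0.57 in EpiSC iPS, at 2.57 and 2.48 in EpiSC, at 3.39 in epiESM and at -3.63 and -3.88 in mESM. Every spot of Sp5 was well above background, epiESM and EpiSC were the highest, and mESM and the EpiSC-like iPS line were the lowest with no overlap with any other group. Cdx1 encodes a caudal-type homeobox factor of the posterior embryo. It was at -5.05 and -5.79 in the EpiSC-like iPS line, at -5.11, -3.87, -7.40 and -7.21 in the EpiSC-like ES line and at -2.62, -2.92 and -2.73 in NOD ES. Cdx1 was at -3.64 and -4.18 in EpiSC iPS, at -5.63 and -7.42 in EpiSC, at -2.43 in epiESM and at -3.95 and -3.73 in mESM. It was well above background only in passage 10 of the EpiSC-like ES line, both KP arrays, epiESM and both mESM arrays, so that it was measured mainly in ES cultures.

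**Figure D1:**
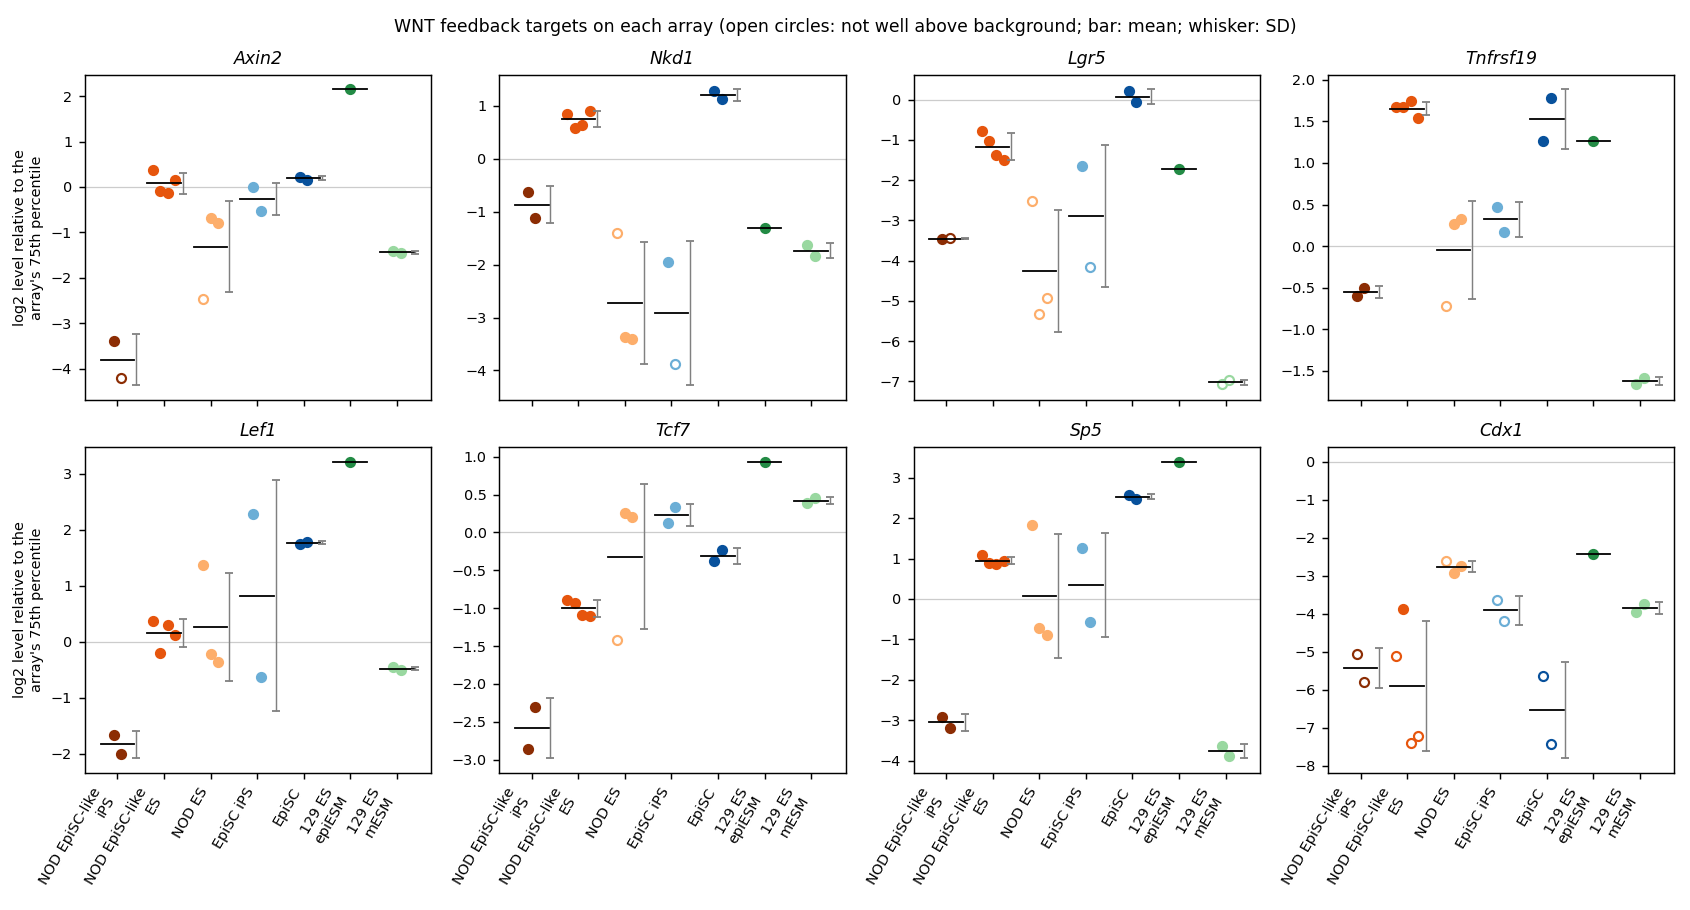
Levels of the 8 targets (log2 relative to the array's 75th percentile, y axis) on each array by group (x axis); filled points were well above background, bars are means and whiskers SD where a group had over 1 array. In the EpiSC-like iPS line Axin2 and Sp5 sit near -4 and -3, against values near 0 and 1 in the EpiSC-like ES line. Axin2, Lef1, Sp5, Tcf7 and Cdx1 are highest in epiESM, which is 1 array.

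The first comparison set the NOD EpiSC-like lines against each other. Of the 8 targets 6 were lower and 0 higher in the iPS line than in the ES line, where 11.6% of all genes tested were called lower and 14.2% higher. Their median difference was -2.10, against 0.28 over all genes. Axin2 fell by 3.88 ± 0.44 (SE) on the log2 scale, a 14.7-fold lower level (adjusted p = 0.000149). Its spot at passage 12 of the iPS line was not well above background, so this size is uncertain. Sp5 fell by 4.01 ± 0.67, 16.1-fold (adjusted p = 0.00156), and Tnfrsf19 fell by 2.21 ± 0.29, 4.62-fold (adjusted p = 0.000319). On the probe used, every iPS array lay below every ES line array for Axin2, Sp5 and Tnfrsf19, by well over the spread within either line. On the second Tnfrsf19 probe the lines came closer, at -3.92 and -4.02 in the iPS line and between -3.48 and -2.34 in the ES line. Tcf7 fell by 1.58 ± 0.40 (adjusted p = 0.0142), Lgr5 by 2.29 ± 0.75 (adjusted p = 0.0446) and Lef1 by 1.98 ± 0.67 (adjusted p = 0.0493). Nkd1 differed by -1.61 ± 0.58 (adjusted p = 0.0633) without overlap, and Cdx1, well above background on 1 array of either line, was not called (adjusted p = 0.72). Leaving out 4K and 1K gave 7 lower and 0 higher, while calls over all genes rose from 5968 to 11732, 56.5% of them higher. On slide 1, which held passage 7 of both lines, the differences were -3.77 for Axin2, -3.99 for Sp5, -2.27 for Tnfrsf19, -2.69 for Lgr5, -2.03 for Lef1, -1.97 for Tcf7 and -1.46 for Nkd1.

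Other WNT genes differed between the lines too. Of 13 other feedback and antagonist genes 5 fell and 1 rose, among them Dkk1, a secreted antagonist of LRP5 and LRP6, at -3.56 ± 0.45 (adjusted p = 0.000274), Wif1, which binds WNT ligands, at -2.88 ± 0.68 (adjusted p = 0.00994), and Sfrp1, another secreted antagonist, at -2.67 ± 0.68 (adjusted p = 0.0151). Znrf3, a ubiquitin ligase that clears Frizzled receptors, fell by 0.84 ± 0.21 (adjusted p = 0.0132). Of 18 R-spondin and receptor genes 8 fell and 0 rose, with Fzd10 at -4.49 ± 0.38 and Fzd1 at -3.08 ± 0.63, and Rspo3, an R-spondin, at least 2.16-fold lower. T, the brachyury gene of the primitive streak, was lower by at least 11.9-fold (adjusted p = 4.93e-05) and was not well above background in the iPS line. In the destruction complex list 4 of 14 genes rose and 1 fell, Gsk3b rising by 0.77 ± 0.22 (adjusted p = 0.0277), while Ctnnb1, the beta-catenin gene, differed by -1.12 ± 0.40 (adjusted p = 0.0584). With the normexp background correction 0 targets were called by limma (2 at an unadjusted p under 0.05), Axin2 was at -0.20 and Sp5 at -0.79, and Lgr5 and Tcf7 turned to 0.57 and 0.45, against 0.77 for the median of all genes. Without passage 7 of the iPS line 3 targets were called, and with slide as a block 4, without Lgr5 (adjusted p = 0.162) and Lef1 (adjusted p = 0.314). Of 20 fibroblast markers 4 fell and 1 rose, with 13 lower and 4 higher without 4K and 1K. Their summed linear level was 813 to 893 in the EpiSC-like iPS line, against 740 to 1060 in the EpiSC-like ES line, and their part in the result was not tested.

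**Figure D2:**
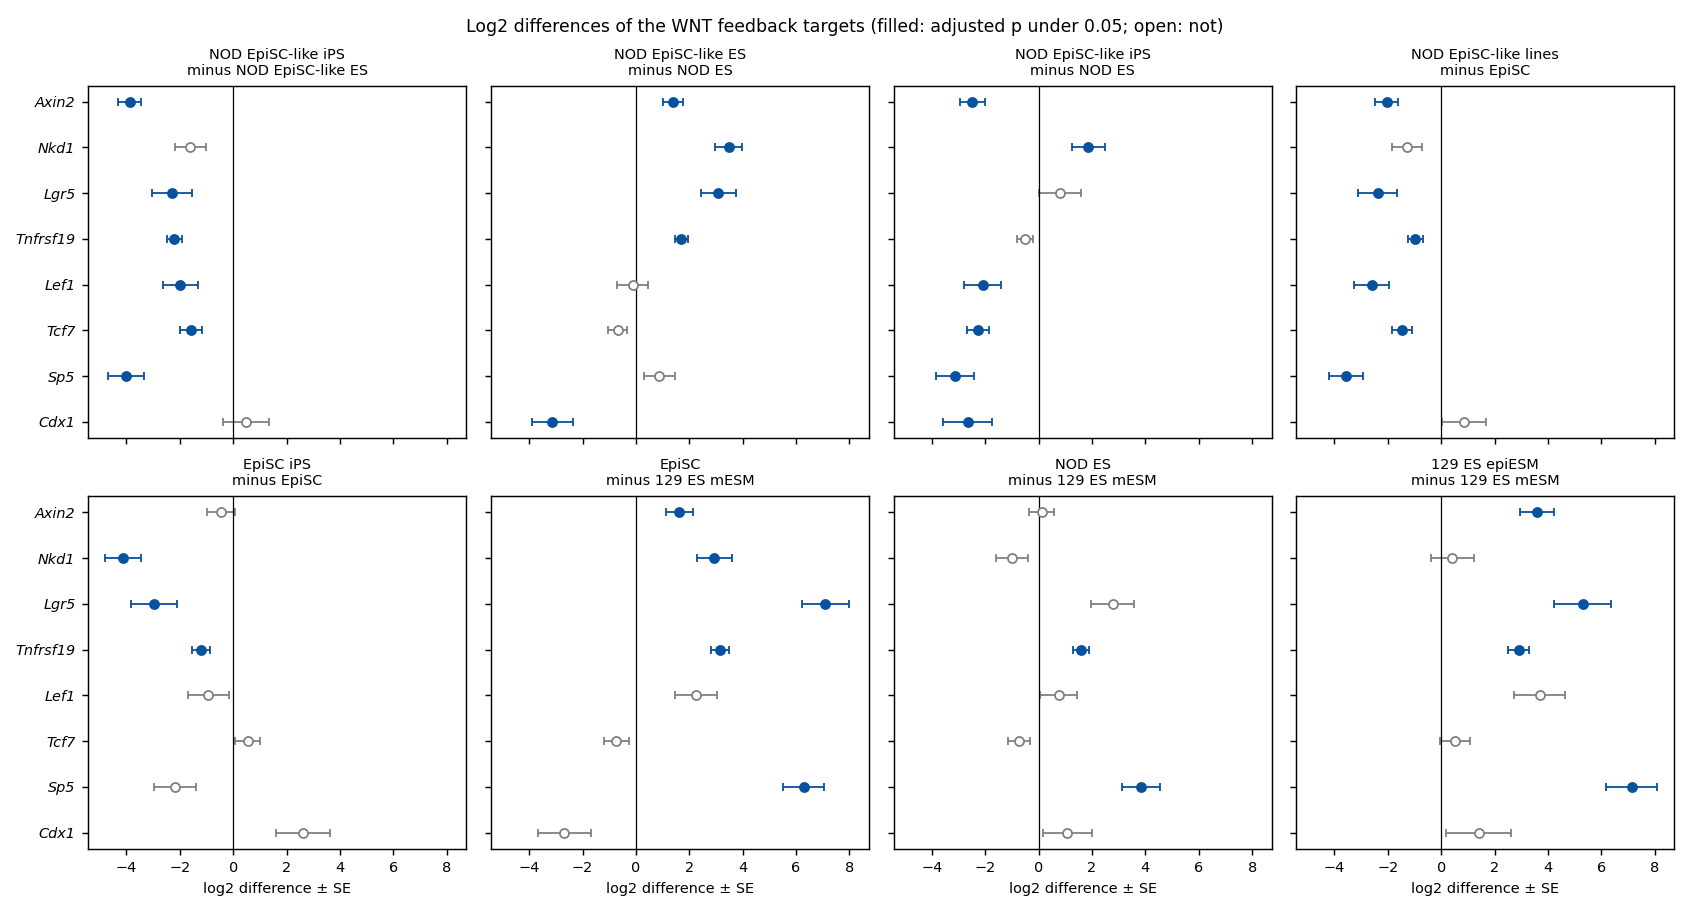
Log2 differences (x axis, first-named minus second-named group, ± SE) of the 8 targets in 8 comparisons, with filled points at an adjusted p under 0.05. In the panel of the NOD EpiSC-like lines 6 filled points lie left of 0, in that of EpiSC against mESM 5 lie right of it, and where Lgr5 or Cdx1 was not well above background in a group its point is a fitted value and not a measured size.

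Both EpiSC-like lines, weighted equally, were next set against EpiSC. Of the targets 6 were lower and 0 higher in the EpiSC-like lines, where 8.22% of all genes were called lower and 7.88% higher, and the median difference was -1.77, against 0.27 over all genes. Sp5 fell by 3.58 ± 0.64 (11.9-fold, adjusted p = 0.00384), Lef1 by 2.61 ± 0.64 (adjusted p = 0.018) and Lgr5 by 2.38 ± 0.72 (adjusted p = 0.0447). Tcf7 fell by 1.48 ± 0.38 (adjusted p = 0.0222). For Sp5, Lef1, Lgr5 and Tcf7 no array of either line reached the EpiSC range on the probe used. On the second Tcf7 probe, however, both lines overlapped EpiSC. Axin2 fell by 2.05 ± 0.42 (adjusted p = 0.00781) and Tnfrsf19 by 0.97 ± 0.27 (adjusted p = 0.034), but for both the ES line overlapped EpiSC and the iPS line lay below it. Nkd1 differed by -1.27 ± 0.56 (adjusted p = 0.146), and Cdx1, not well above background in EpiSC, was not called (adjusted p = 0.483). Leaving out 4K and 1K gave 7 lower and 0 higher, while calls over all genes rose from 3730 to 9568, 52.6% of them higher. With slide as a block 4 were lower, without Lef1 (adjusted p = 0.117) and Lgr5 (adjusted p = 0.0872).

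On slide 1, with both lines, the differences from EpiSC were -1.74 for Axin2, -3.49 for Sp5, -2.40 for Lef1, -2.32 for Lgr5, -1.49 for Tcf7 and -0.73 for Tnfrsf19. On slide 3, with the ES line alone, they were -0.29 for Axin2, -1.60 for Sp5, -1.49 for Lef1, -1.32 for Lgr5, -0.86 for Tcf7 and -0.04 for Tnfrsf19. Of the 13 other feedback genes 3 fell and 1 rose, with Dkk1 at -3.55 ± 0.43 (adjusted p = 0.000396) and Znrf3 at -0.73 ± 0.20 (adjusted p = 0.0292). T fell by 3.77 ± 0.34 (adjusted p = 7.82e-05), and 8 of 10 primed markers fell. Of the fibroblast markers 1 rose and 1 fell. Calls rested on the EpiSC arrays, since without passage 12 limma called 0 targets (6 at an unadjusted p under 0.05), without passage 20 it called 1, and without either iPS line array 3. With normexp it called 0 (3 at an unadjusted p under 0.05), with Sp5 at -2.04 and Lef1 at -1.70.

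The EpiSC-like lines were also set against NOD ES cells. In the EpiSC-like ES line 4 targets were higher and 1 lower than in NOD ES, where 16.9% of all genes were called higher and 25.9% lower, with medians of 1.13 for the targets and -0.47 for all genes. Nkd1 rose by 3.47 ± 0.51 (11.1-fold, adjusted p = 0.000238), Tnfrsf19 by 1.70 ± 0.25 (3.24-fold, adjusted p = 0.000248) and Axin2 by 1.39 ± 0.39 (adjusted p = 0.0134). Lgr5 was higher by at least 3.87-fold (adjusted p = 0.00292). The spots of Nkd1, Tnfrsf19 and Axin2 on 4K were not well above background, so their sizes are uncertain. Without 4K and 1K their rises were 4.13, 1.36 and 0.82. Nkd1, Tnfrsf19, Axin2 and Lgr5 did not overlap between the groups on the probe used. On the second Tnfrsf19 probe, however, the groups overlapped. Cdx1 was called lower (adjusted p = 0.00619) but was well above background on 1 of 4 arrays of the line, so its size was not measured. Sp5 differed by 0.88 ± 0.59 (adjusted p = 0.25), Lef1 by -0.12 ± 0.59 (adjusted p = 0.882) and Tcf7 by -0.68 ± 0.35 (adjusted p = 0.136), all overlapping through 4K. Without 4K and 1K 5 were higher and 2 lower, Sp5 then rising by 1.76 (adjusted p = 4.22e-06) and Tcf7 falling by 1.23 (adjusted p = 0.000138). Calls over all genes then rose from 9927 to 12590, 42.6% of them higher. On slide 4, with 1 array of the line and both KP arrays, Sp5 differed by 1.71, Nkd1 by 3.97, Tnfrsf19 by 1.37, Axin2 by 0.66 and Tcf7 by -1.16. The calls of Axin2 (adjusted p = 0.13) and Cdx1 (adjusted p = 0.0504) were lost with slide as a block, where Tcf7 was called (adjusted p = 0.0134).

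In the EpiSC-like iPS line 1 target was higher and 5 were lower than in NOD ES, where 14.9% of all genes were called higher and 18.2% lower. Axin2 fell by 2.48 ± 0.47 (5.6-fold, adjusted p = 0.00162), Sp5 by 3.13 ± 0.71 (8.75-fold, adjusted p = 0.00526) and Tcf7 by 2.26 ± 0.42 (4.79-fold, adjusted p = 0.0015). The sizes for Axin2 and Tcf7 are uncertain. Both were not well above background on 4K, nor was Axin2 at passage 12 of the line. Lef1 fell by 2.10 ± 0.70 (adjusted p = 0.0393), Cdx1 was lower by at least 2.27-fold (adjusted p = 0.0429), and Nkd1 rose by 1.86 ± 0.61 (adjusted p = 0.0365). Cdx1 and Nkd1 were not well above background on 4K either. The targets' median was -2.18, against -0.09 for all genes. Without 4K and 1K 2 were higher and 5 lower, the added rise being that of Lgr5. Calls over all genes then rose from 7676 to 11439, 48% of them higher. Lgr5 was not well above background in NOD ES and on 1 of 2 arrays of the line, and Tnfrsf19 differed by -0.51 ± 0.30 (adjusted p = 0.24). The call of Lef1, Nkd1 or Cdx1 was lost when any of several single arrays was left out, including passage 7 or 12 of the line or either mESM array, each of which left 3 calls. With slide as a block 2 of the 6 calls were left, those of Axin2 at -3.00 and Tcf7 at -3.04, and with normexp Axin2 turned to 0.56 and Cdx1 to 1.74 while the median of all genes was 1.02.

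With both lines weighted equally, 2 targets were higher than in NOD ES and 2 lower, where 16.7% of all genes were called higher and 22% lower. Nkd1 rose by 2.66 ± 0.48 (adjusted p = 0.00102) and Lgr5 was at least 1.75-fold higher (adjusted p = 0.0285), while Tcf7 fell by 1.47 ± 0.33 (adjusted p = 0.00405). Nkd1 and Tcf7 were not well above background on 4K, so both sizes are uncertain. Cdx1 was called lower (adjusted p = 0.0073) but was well above background on 1 of 6 arrays of the lines, so the size of its fall was not measured. Axin2 at -0.55 ± 0.37 (adjusted p = 0.279) and Sp5 at -1.13 ± 0.56 (adjusted p = 0.142) were averages over an ES line above and an iPS line below the KP arrays. With normexp Cdx1 turned to 0.81, Axin2 was at 0.67 and Sp5 at 0.21. Without 4K and 1K 2 were higher and 4 lower, Axin2 falling by 1.12 (adjusted p = 0.00166) and Lef1 by 0.56 (adjusted p = 0.0181). Calls over all genes then rose from 8969 to 11984, 45.3% of them higher. With slide as a block Lgr5 (adjusted p = 0.0995) and Cdx1 (adjusted p = 0.103) were not called and Axin2 was (adjusted p = 0.0491).

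Of the other feedback and antagonist genes, 6 of 13 rose and 2 fell in the EpiSC-like ES line against NOD ES, with Wif1 at least 32.9-fold and Frzb, a secreted antagonist, at least 7.57-fold higher and Dkk1 higher by 3.19 ± 0.40 (adjusted p = 7.01e-05). In the EpiSC-like iPS line 4 rose and 1 fell, with Frzb at least 14.2-fold and Wif1 at least 4.47-fold higher, while Dkk1 differed by -0.37 ± 0.47 (adjusted p = 0.615). T rose by 2.87 ± 0.32 in the ES line (adjusted p = 2.9e-05) and differed by -0.84 ± 0.38 in the iPS line (adjusted p = 0.117). Tcf7l2, another TCF factor, rose in both, by 1.33 ± 0.25 and 1.88 ± 0.29. Fibroblast markers rose beside these differences, 17 of 20 in the ES line and 9 of 20 in the iPS line. Their summed linear level was 740 to 1060 in the EpiSC-like ES line and 813 to 893 in the EpiSC-like iPS line, against 117 to 435 in NOD ES, and their part in the results was not tested.

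EpiSC were set against mESM, a group of ES cells outside the NOD strain. In epiESM, another 129 ES culture, Axin2 (2.15), Sp5 (3.39), Lef1 (3.21) and Tcf7 (0.93) stood above both EpiSC arrays. Nkd1 (-1.31) and Lgr5 (-1.73) stood below both there, so the differences given here refer to mESM and not to naive cultures at large. Of the targets 5 were higher and 0 lower in EpiSC, where 12% of all genes were called higher and 12.7% lower, with medians of 2.59 and -0.34. Sp5 rose by 6.28 ± 0.78 (77.7-fold, adjusted p = 0.000211) and Lgr5 was at least 32.2-fold higher (adjusted p = 0.000195). Tnfrsf19 rose by 3.15 ± 0.33 (8.87-fold, adjusted p = 7.23e-05), Nkd1 by 2.94 ± 0.67 (7.67-fold, adjusted p = 0.00837) and Axin2 by 1.63 ± 0.51 (3.1-fold, adjusted p = 0.0375). Lef1 differed by 2.25 ± 0.77 (adjusted p = 0.0547) and Tcf7 by -0.73 ± 0.46 (adjusted p = 0.271), each with no overlap of the 2 arrays a side. Cdx1, not well above background in EpiSC, was at least 1.34-fold lower and was not called (adjusted p = 0.0728). Without 4K and 1K 6 were higher and 1 lower, Lef1 rising (adjusted p = 2.21e-05) and Tcf7 falling (adjusted p = 0.011). Calls over all genes then rose from 5707 to 10620, 45.5% of them higher.

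Dkk1 rose by 4.55 ± 0.52 (adjusted p = 0.000125) and T by 5.82 ± 0.41 (adjusted p = 5.14e-06), and Frzb and Wif1 were at least 26.3-fold and 36.8-fold higher. Of the other feedback list 4 of 13 rose and 1 fell, and Znrf3 differed by 0.01 ± 0.24 (adjusted p = 0.968). Rspo2 was at least 33.1-fold and Rspo3 at least 3.18-fold higher, and Wls, the carrier that brings WNT ligands to the surface, rose by 4.93 ± 0.70 (adjusted p = 0.000521). The bound for Rspo3 is uncertain, since 1 of 2 EpiSC arrays was well above background. Fibroblast markers rose in 15 of 20, with a summed linear level of 450 to 501 in EpiSC, against 59.8 to 66.1 in mESM, and their part in the result was not tested. With 2 arrays a side, 3 targets were called without passage 12 of EpiSC or without the second mESM array, and no slide held both groups. Nkd1 (adjusted p = 0.102) and Axin2 (adjusted p = 0.0502) were not called with slide as a block, where Cdx1 was called lower (adjusted p = 0.00717).

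The NOD difference, EpiSC-like lines minus NOD ES, was then compared with the non-NOD difference, EpiSC minus mESM, by an interaction term. For 5 targets the NOD difference was lower than the non-NOD one and for 0 higher, where 7.53% of all genes were called lower and 5% higher, with medians of -2.37 and 0. Sp5 differed by -1.13 in the NOD lines and by 6.28 in the non-NOD lines, a gap of -7.41 ± 0.96 (adjusted p = 0.001). Lef1 had a gap of -3.36 ± 0.95 (adjusted p = 0.0415), Tnfrsf19 of -2.55 ± 0.41 (adjusted p = 0.00284) and Axin2 of -2.18 ± 0.63 (adjusted p = 0.0446). Lgr5 was the remaining call (adjusted p = 0.0102), but it was not well above background on any NOD ES or mESM array, so each of its differences is only a bound and its gap was not measured. Axin2, Sp5 and Lef1 had a lower mean over both NOD EpiSC-like lines than in NOD ES. Their mean was higher in EpiSC than in mESM. In the iPS line alone they differed from NOD ES by -2.48, -3.13 and -2.10. In the ES line alone they differed by 1.39, 0.88 and -0.12, so the lower mean was mainly that of the iPS line. Nkd1, higher in the primed-type cultures of both the NOD and the non-NOD lines, had a gap of -0.28 ± 0.83 (adjusted p = 0.883). Tcf7 had a gap of -0.74 ± 0.57 (adjusted p = 0.457), and Cdx1 was not called (adjusted p = 0.944). Without 4K and 1K 6 were lower and 0 higher, the gap of Sp5 was -6.53, and Tcf7 was called as well at -1.29 (adjusted p = 0.00318).

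Among the primitive streak and other WNT-responsive genes 5 of 17 had a lower NOD difference and 1 a higher one, and among primed markers 8 of 10 a lower one. With slide as a block 0 targets were called by limma (6 at an unadjusted p under 0.05), Sp5 having a gap of -6.52 (adjusted p = 0.0585), Tnfrsf19 of -2.69 (adjusted p = 0.0505) and Axin2 of -2.85 (adjusted p = 0.0572). With normexp 0 were called (3 at an unadjusted p under 0.05), Sp5 having a gap of -4.49. Without either mESM array or passage 12 of EpiSC 2 were called, and without any 1 of several other arrays 3. Of the NOD ES arrays 2 carry KP in the title and no mESM array does, so that strain, line and inhibitor cannot be told apart.

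**Figure D3:**
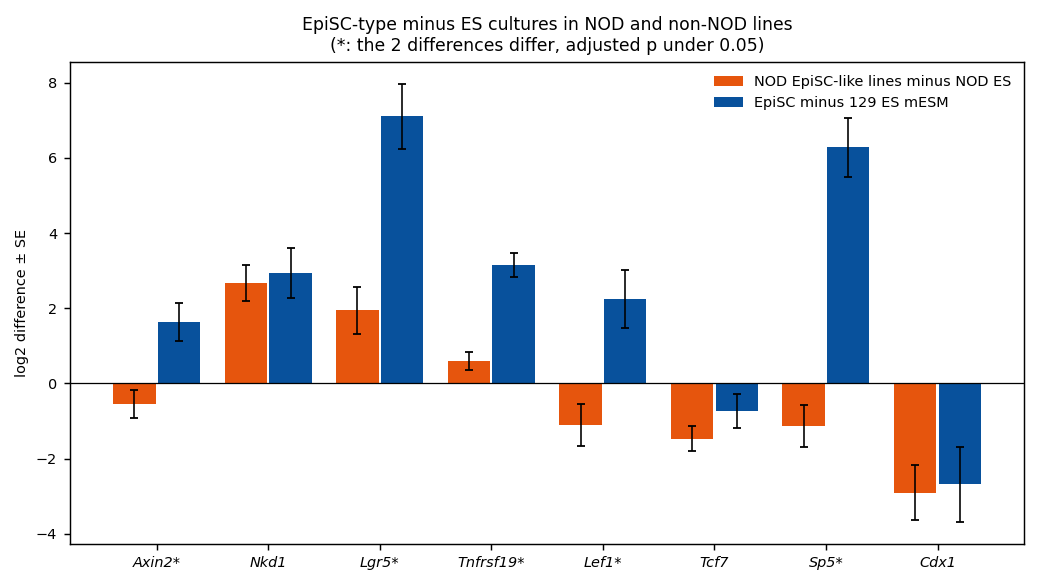
Log2 differences (y axis, ± SE) of each target in the NOD lines (EpiSC-like lines minus NOD ES, left bars) and in the non-NOD lines (EpiSC minus mESM, right bars); stars mark a difference between the 2 at an adjusted p under 0.05. Sp5 stands at -1.13 in the NOD lines and 6.28 in the non-NOD lines, whereas both bars of Nkd1 are near 3. The NOD bars average both EpiSC-like lines, whose means lay on either side of NOD ES for Axin2 and Sp5. The bars of Lgr5 and Cdx1 are fitted values that rest on arrays where these genes were not well above background.

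The EpiSC iPS cultures were set against EpiSC and against mESM. Against EpiSC 3 targets were lower and 0 higher, where 8.99% of all genes were called lower and 12.2% higher, with medians of -1.07 and 0.42. Nkd1 fell by 4.12 ± 0.67 (17.4-fold, adjusted p = 0.00137), Lgr5, measured on 1 of 2 EpiSC iPS arrays, by 2.96 ± 0.87 (adjusted p = 0.0314) and Tnfrsf19 by 1.2 ± 0.33 (adjusted p = 0.0238). Sp5 differed by -2.19 ± 0.78 (adjusted p = 0.0691), Axin2 by -0.46 ± 0.51 (adjusted p = 0.532), Tcf7 by 0.54 ± 0.46 (adjusted p = 0.418) and Lef1 by -0.94 ± 0.77 (adjusted p = 0.402). Dkk1 fell by 4.81 ± 0.52 (adjusted p = 0.000104), T was lower by at least 15.9-fold (adjusted p = 1.29e-05) and Znrf3 by at least 1.12-fold. The count was 1 without 1K or without passage 20 of EpiSC, 5 without 3M and 1 with normexp, and 4 without 4K and 1K, with Lef1 at 0.51 and Sp5 falling by 1.28 (adjusted p = 0.000842). Tnfrsf19 was not called with slide as a block (adjusted p = 0.815), while in that fit Sp5 fell by 4.75 (adjusted p = 0.0335) and Tcf7 rose by 2.13 (adjusted p = 0.0179). Of the fibroblast markers 3 fell and 0 rose, with a summed linear level of 116 and 1140 in EpiSC iPS, against 450 to 501 in EpiSC, and their part was not tested.

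Against mESM 3 targets were higher in EpiSC iPS and 0 lower, where 6.77% of all genes were called higher and 3.87% lower, with medians of 1.24 and 0.08. Sp5 rose by 4.09 ± 0.78 (17.1-fold, adjusted p = 0.00842), Tnfrsf19 by 1.95 ± 0.33 (3.86-fold, adjusted p = 0.0058) and Lgr5 was at least 4.14-fold higher (adjusted p = 0.0128). The bound for Lgr5 is uncertain, since 1 of 2 EpiSC iPS arrays was well above background. Axin2 differed by 1.17 ± 0.51 (adjusted p = 0.174), Lef1 by 1.30 ± 0.77 (adjusted p = 0.319) and Nkd1 by -1.18 ± 0.67 (adjusted p = 0.299). Without 4K and 1K, which leaves 3M as the lone EpiSC iPS array, 5 were higher, Lef1 rising by 2.76 (adjusted p = 4.97e-05) and Axin2 by 1.43 (adjusted p = 0.00698), the lone array being assumed to vary like the other groups. The ligand gene Wnt8a was at least 11.3-fold higher and Wnt3 rose by 2.10 ± 0.53, whereas Dkk1 differed by -0.26 ± 0.52 (adjusted p = 0.81). Each of these was well above background on 1 of 2 EpiSC iPS arrays, so their sizes are uncertain. Without 3M 1 target was called, and without either mESM array 0 by limma (3 at an unadjusted p under 0.05), as with normexp (3 at an unadjusted p under 0.05). With slide as a block Sp5 was at 1.49 (adjusted p = 0.45) and Lgr5 was not called (adjusted p = 0.712), while Axin2 rose by 3.13 (adjusted p = 0.032) and Cdx1 was called lower (adjusted p = 0.029). Fibroblast markers rose in 10 of 20 and summed to 116 and 1140 in the EpiSC iPS arrays, against 59.8 to 66.1 in mESM, and their part was not tested.

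The 129 ES culture titled epiESM was set against mESM, 1 array against 2. The epiESM group has no replicate check, and its calls assume that the lone array varies like the other groups. Of the targets 4 were higher and 0 lower, where 2.38% of all genes were called higher and 1.59% lower, with medians of 3.24 and -0.02. Sp5 rose by 7.14 ± 0.95 (141-fold, adjusted p = 0.00355), Axin2 by 3.59 ± 0.63 (12-fold, adjusted p = 0.0127) and Tnfrsf19 by 2.90 ± 0.40 (7.45-fold, adjusted p = 0.00448). Lgr5 was higher by at least 9.25-fold (adjusted p = 0.0221), and Lef1 differed by 3.69 ± 0.95 (adjusted p = 0.0556) and was called without 4K and 1K (adjusted p = 1.84e-05), which made 5. Nkd1 at 0.42 ± 0.82 (adjusted p = 0.881), Tcf7 at 0.52 ± 0.56 (adjusted p = 0.735) and Cdx1 at 1.41 ± 1.22 (adjusted p = 0.635) were not called.

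Of 20 ligand and secretion genes 3 rose and 0 fell, Wnt8a at least 15-fold, Wls by 3.66 ± 0.86 and Wnt3, a ligand of the posterior epiblast, by 2.72 ± 0.65 (adjusted p = 0.0417). T rose by 2.11 ± 0.51 (adjusted p = 0.0433), whereas of 13 other feedback genes limma called 0, with Dkk1 at 1.37 ± 0.64 (adjusted p = 0.28) and Znrf3 at 0.33 ± 0.29 (adjusted p = 0.648). Naive markers were also called in 0 of 9, with Zfp42 at 1.65 ± 1.25 (adjusted p = 0.565). Fibroblast markers rose in 9 of 20 and summed to 400 in epiESM, against 59.8 to 66.1 in mESM, and their part was not tested. The count was 2 without either mESM array and with normexp, and 1 with slide as a block, that of Axin2 at 3.83 (adjusted p = 0.0498).

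NOD ES cells were set against mESM. Of the targets 2 were higher and 0 lower, where 5.88% of all genes were called higher and 3.06% lower, with medians of 0.91 and 0.22. Sp5 rose by 3.83 ± 0.71 (14.2-fold, adjusted p = 0.0088) and Tnfrsf19 by 1.58 ± 0.30 (3-fold, adjusted p = 0.00993). Tnfrsf19 was not well above background on 4K, so its size is uncertain. Axin2 differed by 0.12 ± 0.47 (adjusted p = 0.89), Lef1 by 0.75 ± 0.70 (adjusted p = 0.544), Nkd1 by -0.99 ± 0.61 (adjusted p = 0.355), Tcf7 by -0.74 ± 0.42 (adjusted p = 0.314) and Cdx1 by 1.08 ± 0.91 (adjusted p = 0.494). Of the other feedback list limma called 0 of 13. Without either mESM array it called 0 targets (3 at an unadjusted p under 0.05), and with slide as a block 0 (3). Without 4K and 1K 3 were higher and 1 lower, while calls over all genes rose from 2070 to 5999, 64.4% of them higher. The added rise was that of Lgr5, not well above background on any NOD ES or mESM array, so it was not measured. Fibroblast markers rose in 7 of 20 and fell in 0, with a summed linear level of 117 to 435 in NOD ES, against 59.8 to 66.1 in mESM, and their part was not tested.

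The NOD ES arrays titled with KP alone were then set against mESM, whose titles name no inhibitor. Here 2 targets were higher and 1 lower, where 8.67% of all genes were called higher and 4.37% lower, with medians of 0.85 and 0.09. Sp5 rose by 2.95 ± 0.44 (7.72-fold, adjusted p = 0.00307) and Tnfrsf19 by 1.92 ± 0.20 (3.79-fold, adjusted p = 0.000717), while Nkd1 fell by 1.65 ± 0.48 (adjusted p = 0.0471). Axin2, at -0.68 and -0.80 in the KP arrays and -1.42 and -1.46 in mESM, differed by 0.70 ± 0.29 (adjusted p = 0.149). Lef1 differed by 0.19 ± 0.68 (adjusted p = 0.911), Tcf7 by -0.19 ± 0.21 (adjusted p = 0.655) and Cdx1 by 1.01 ± 1.04 (adjusted p = 0.634). The array with KP/CH and that with KP alone, 1 each and so without a test, lay side by side at -0.72 and -0.89 for Sp5, 0.26 and 0.33 for Tnfrsf19 and 0.26 and 0.20 for Tcf7. Znrf3 fell by 0.88 ± 0.19 (adjusted p = 0.0143) and Wnt3 rose by 1.1 ± 0.21 (adjusted p = 0.00791), while Gsk3b differed by -0.01 ± 0.19 (adjusted p = 0.983) and Ctnnb1 by 0.26 ± 0.39 (adjusted p = 0.778). Strain, line, slide and inhibitor cannot be told apart here, and with slide as a block limma called 0 targets (3 at an unadjusted p under 0.05), as with normexp (2 at an unadjusted p under 0.05). The KP arrays had 3 targets higher and 1 lower without 4K and 1K, the same fit as that of NOD ES without them. Lgr5, not well above background in either group, was again the added rise. Of 20 fibroblast markers 7 rose and 1 fell in the KP arrays, and their part was not tested. The comparisons with mESM share its arrays, and so do those with EpiSC and those with NOD ES.

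Levels of the other WNT genes across the arrays are shown beside the targets. Dkk1 was at -3.62 and -3.55 in the EpiSC-like iPS line, between -0.17 and 0.08 in the EpiSC-like ES line, and at -2.52, -3.41 and -3.73 in NOD ES. It was at -2.11 and -4.01 in EpiSC iPS, 1.69 and 1.80 in EpiSC, -1.44 in epiESM and -2.96 and -2.65 in mESM. EpiSC and the EpiSC-like ES line thus stood above all other cultures. Tcf7l1, the repressor among the TCF factors, was at 0.09 and 0.29 in the EpiSC-like iPS line, between 1.74 and 2.33 in the EpiSC-like ES line, and at -0.32, 3.92 and 4.02 in NOD ES. It was at 0.49 and 3.92 in EpiSC iPS, 3.71 and 3.68 in EpiSC, -0.73 in epiESM and 2.40 on both mESM arrays. Tcf7l1 was low on 3M and epiESM, and on 4K its spot was not well above background, so its level there is uncertain. The arrays 4K, 3M and epiESM were the highest ES-type arrays for Sp5 and Lef1, and a link was not tested. Tcf7l1 was called in 0 of the 11 comparisons of groups by limma, its SE being between 0.79 and 1.59.

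**Figure D4:**
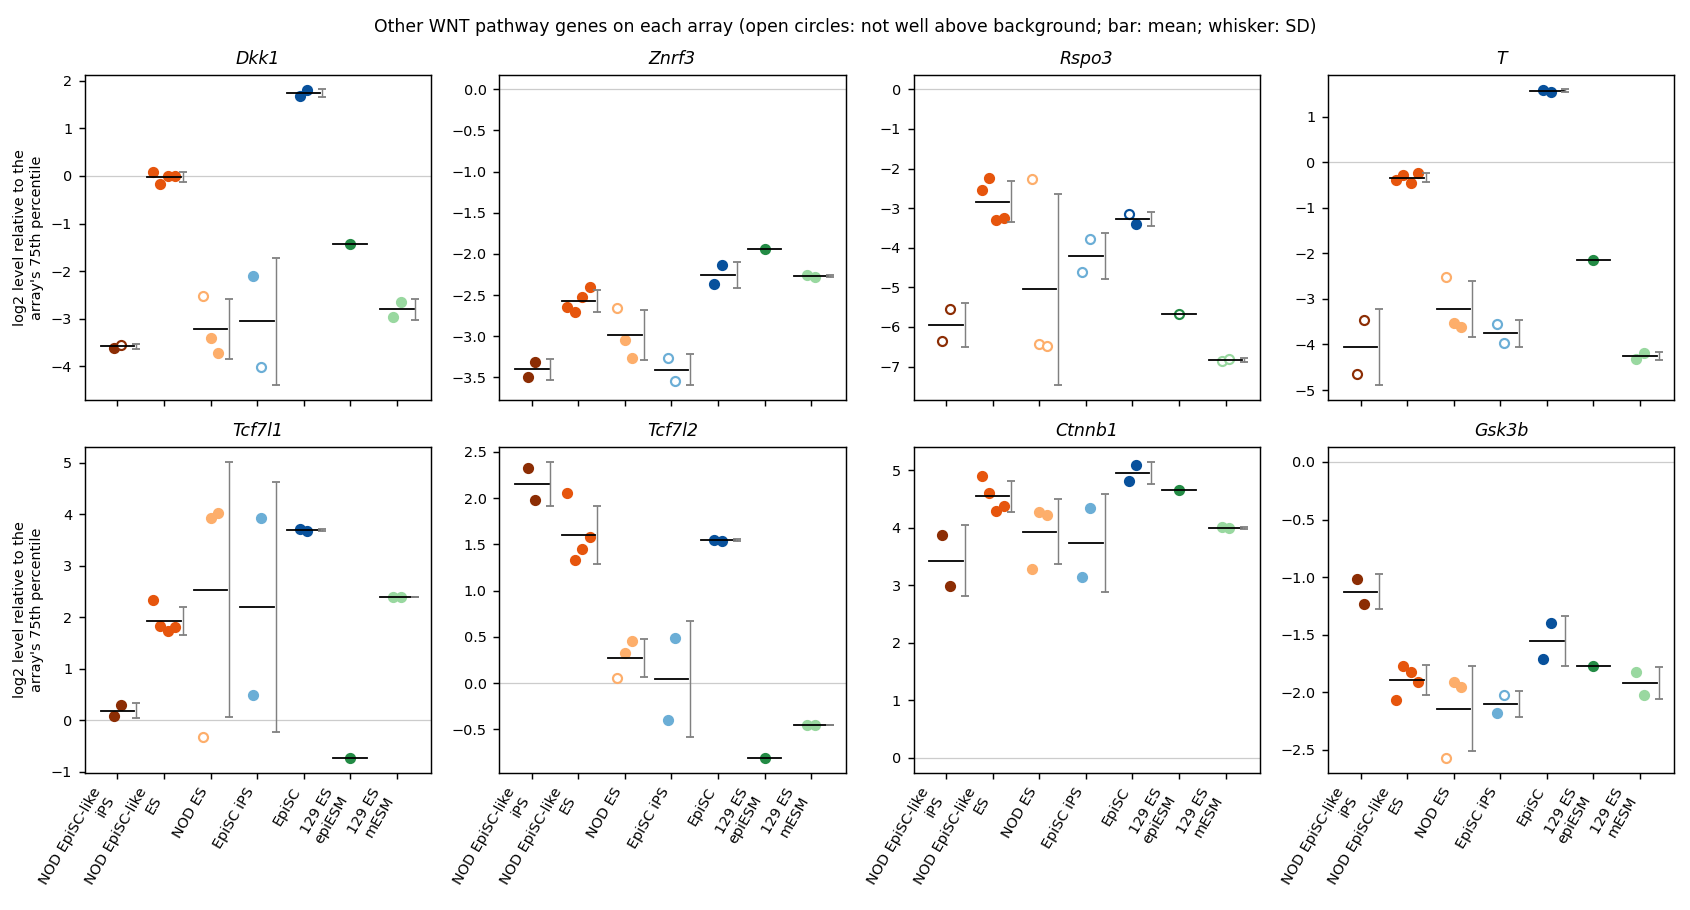
Levels of 8 other WNT pathway genes (log2 relative to the array's 75th percentile, y axis) on each array by group (x axis), with filled points well above background, bars for means and whiskers for SD. Dkk1 and T are near 0 in the EpiSC-like ES line and above 1 in EpiSC. Tcf7l1 splits the NOD ES and EpiSC iPS arrays, its low NOD ES point being not well above background.

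Several targets had further probes. The second Lef1 probe (A_51_P420400) read -2.51 and -2.11 in the EpiSC-like iPS line, between -2.11 and -1.38 in the EpiSC-like ES line, and 1.04, -1.43 and -1.57 in NOD ES. It read 2.37 and -2.68 in EpiSC iPS, -0.32 and -0.40 in EpiSC, 1.17 in epiESM and -3.12 and -3.27 in mESM. It kept 4K, 3M and epiESM high, but the NOD EpiSC-like lines came close to each other on it. The second Tcf7 probe (A_52_P244711) read -3.77 and -2.89 in the EpiSC-like iPS line and between -3.35 and -2.61 in the EpiSC-like ES line. It read -3.07 and -2.49 in EpiSC and -1.10 and -1.20 in mESM. The 2 lines thus overlapped each other on it, and both overlapped EpiSC. The second Tnfrsf19 probe (A_52_P7593) read -3.92 and -4.02 in the EpiSC-like iPS line and between -3.48 and -2.34 in the EpiSC-like ES line. These lines did not overlap on it but came closer than on the brighter probe. In NOD ES the second probe read -2.30 on 4K, not well above background, and -3.50 and -3.46 on the KP arrays. NOD ES and the ES line thus overlapped on it. It read -1.84 and -1.68 in EpiSC, -2.55 in epiESM and, not well above background, -5.21 and -5.93 in mESM. On this probe EpiSC lay above both lines without overlap, and both lines lay above mESM. The brighter probe had both lines above mESM too, but there EpiSC and the ES line overlapped, with the higher mean in the ES line. Of the remaining probes, 1 of Lef1 was well above background on 1 array and 1 of Lgr5 on 0.

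**Figure D5:**
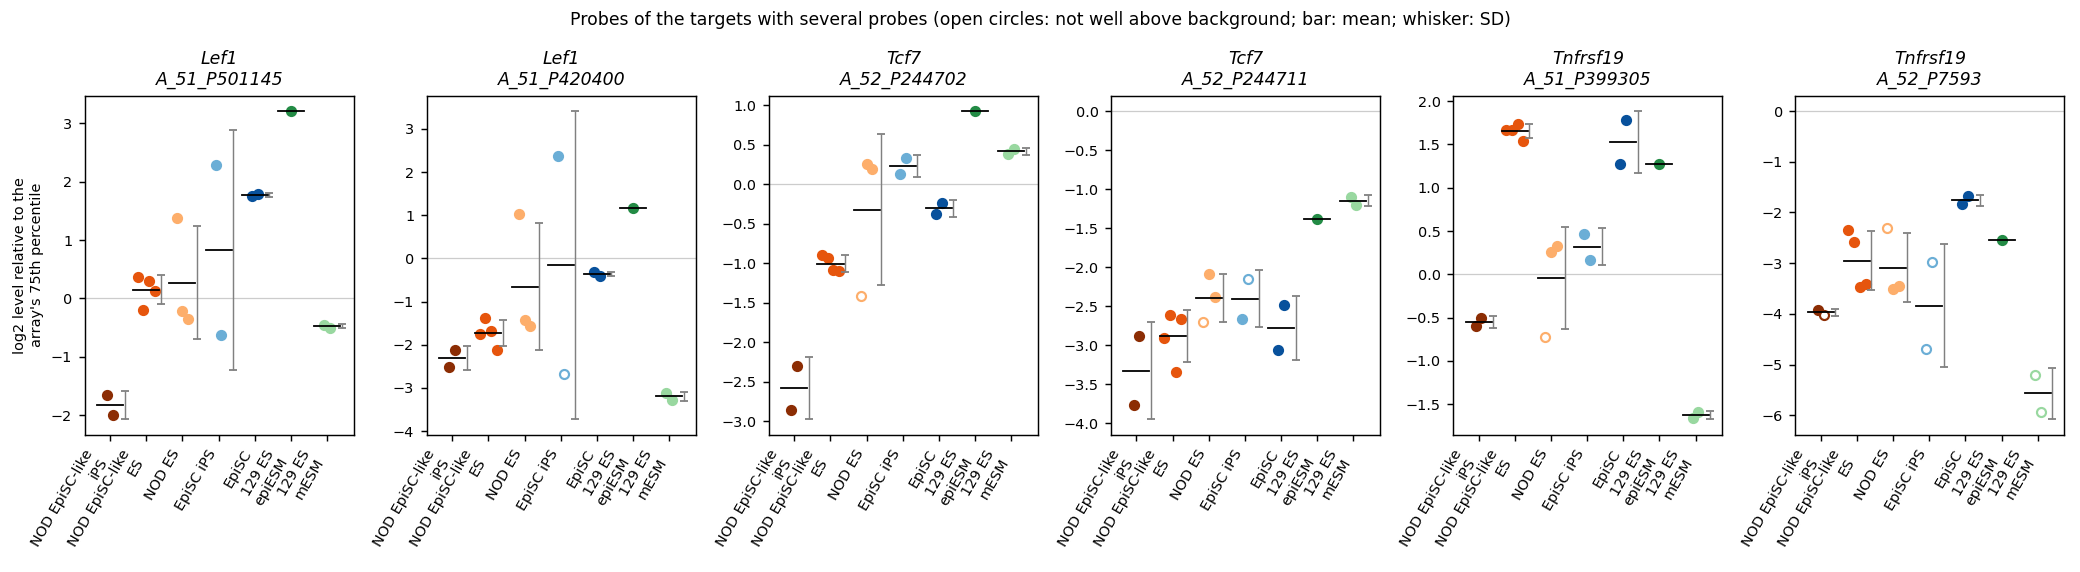
Levels (log2 relative to the array's 75th percentile, y axis) by group (x axis) for the brighter and the second probe of Lef1, Tcf7 and Tnfrsf19, with filled points well above background. The EpiSC-like lines are apart on the brighter Lef1 and Tcf7 probes and closer or overlapping on the second ones, while epiESM is high on both Lef1 probes.

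The targets did not follow one pattern. After each gene's mean was subtracted, the closest pair over the 16 arrays was Axin2 and Lef1, with a root mean square difference of 1.05, and the farthest was Lgr5 and Cdx1 at 3.34. The genes nearest to Axin2 among 22978 were Fzd10, a Frizzled receptor, at 0.684 and Cand2 at 0.762, where the SD of Axin2 itself was 1.56. Those nearest to Sp5 were Ccn4, a secreted matrix protein known as a WNT target, at 0.90 and Tmem132c at 1.02, with an SD of Sp5 of 2.33. Nkd1 was nearest to Pxdn (0.299) and Prkd1 (0.32), Tnfrsf19 to Arhgef26 (0.353) and Lpar4 (0.414), Tcf7 to Polr1e (0.343) and Zfp566 (0.346), and Lef1 to Myb (0.64) and Pim2 (0.663). Lgr5 was nearest to Adra2a (0.616) and Dynap (0.641), and Cdx1 to Platr20 (0.422) and Zfp750 (0.573). Arrays of 1 line share more than the targets, so these distances describe the 16 arrays only.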

How the data were processed

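RNA of 16 cultures was hybridised to one-colour Agilent arrays (design 014868). Per the labels' protocols, the input was 0.5 µg of total RNA and the dye was Cy3. Feature Extraction 10.1.1.1 read the spots, per the file headers, and its processed signal is an intensity after background subtraction and detrending within each array. The deposited value table holds log2 values; judged from the values, these are quantile-normalized mean spot signals (median 6.93 on each array) with no background correction. Limma is named, with no settings, in the submitters' processing notes.

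Each array held 43379 gene spots and 1639 control spots, which were left out, as were spots marked as outliers. The value analysed was the log2 processed signal relative to the 75th percentile of its array, so a gene that is low on an array with a high background has an uncertain level. Probes were kept if well above background on 2 or more arrays, and a gene was given by its probe with the highest mean. Limma 3.58.1 in R 4.3.3 fitted group means over all 16 arrays, with p-values adjusted over 23161 genes (23160 for epiESM). For a group with no spot well above background a fold is a bound, the brighter mean against the dimmest signal that was well above background on each dim array. The brighter mean takes in every array of its group, so the bound is uncertain where some of those were not well above background. Arrays carry no read depth, and their number limits the precision. The fit was tested on simulated data.

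Members matched by the name in the files. Other genes were named through the RefSeq table where it held the accession or symbol. Besides the members, the text names in each comparison up to 3 called genes of each pathway or marker list with the largest difference, fixed WNT genes (Tcf7l1, Tcf7l2, Ctnnb1, Gsk3b, Dkk1, T, Rspo3 and Znrf3), label check genes and the 2 genes nearest to each member, and not all of these are printed. Kenpaullone and CHIR are as the study's publication names them. The members and lists were chosen with earlier results of these data known. Slides came from the file headers. Slide 1 held passage 7 of both EpiSC-like lines and EpiSC passage 12, slide 2 the other iPS line array, and slide 3 EpiSC passage 20 with passage 5 of the ES line. Slide 4 held passage 10 of the ES line, epiESM and both KP arrays, slide 5 passage 9 of the ES line with the mESM pair, and slide 6 the EpiSC iPS pair with 4K. Alternatives were quantile normalization, the normexp background correction with an offset of 50, the deposited value table, no filter, a filter at 4 arrays, the mean of a gene's probes, slide as a block, the mESM arrays averaged, both arrays of doubtful label left out, and each array left out in turn.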

Additional observations from a re-analysis of the deposited data

Results flagged for a closer look

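The difference between EpiSC-type and ES cultures was itself different between the NOD lines (EpiSC-like lines minus NOD ES) and the non-NOD lines (EpiSC minus mESM) for 5 targets, by the interaction term of the limma fit. The NOD difference minus the non-NOD difference was -7.41 for Sp5, -3.36 for Lef1, -2.55 for Tnfrsf19 and -2.18 for Axin2, at adjusted p-values between 0.001 and 0.0446. The NOD difference is an average over both EpiSC-like lines. For these genes, in that order, it was 0.88, -0.12, 1.70 and 1.39 in the ES line alone. In the iPS line alone it was -3.13, -2.10, -0.51 and -2.48. The fit also gave -5.16 for Lgr5, which is not a measured size, since its spot was not well above background on any NOD ES or mESM array. With slide as a block the gaps of Sp5, Lef1, Tnfrsf19 and Axin2 were -6.52, -2.95, -2.69 and -2.85, none of them called. In the only group of 4 arrays, the EpiSC-like ES line, no target had an array far from the others by Dixon's 95% criterion.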

How the results depend on the processing

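Counts of called targets are totals of 8 over both directions, with the count from all arrays and the settings above in brackets. With normexp they were 2 (4) for EpiSC-like lines minus NOD ES, 3 (5) for the EpiSC-like ES line and 2 (6) for the EpiSC-like iPS line minus NOD ES, 1 (3) for EpiSC iPS minus EpiSC and 5 (5) for EpiSC minus mESM. They were 0 (6) for EpiSC-like lines minus EpiSC, 0 (6) for the EpiSC-like iPS minus ES line, and, against mESM, 0 (2) for NOD ES, 0 (3) for EpiSC iPS, 2 (4) for epiESM, with 0 (5) for the interaction and 0 (3) for the KP arrays minus mESM, and where 0 were called limma gave 3, 2, 2, 3, 3 and 2 targets at an unadjusted p under 0.05, in that order. The results that reversed did so with normexp: Cdx1 in EpiSC-like lines minus NOD ES (0.81), Axin2 (0.56) and Cdx1 (1.74) in the EpiSC-like iPS line minus NOD ES, and Lgr5 (0.57) and Tcf7 (0.45) in the iPS minus ES line, where the medians of all genes were 0.58, 1.02 and 0.77; the cause was not tested. With slide as a block the counts were 2 for the iPS line minus NOD ES, 1 for epiESM minus mESM and 0 for NOD ES minus mESM, the interaction and the KP arrays (3, 6 and 3 at an unadjusted p under 0.05). With the mESM arrays averaged they were 3 for the iPS line minus NOD ES, 2 for the interaction and, against mESM, 3 for EpiSC, 2 for epiESM and 0 for both NOD ES and EpiSC iPS (3 and 3 at an unadjusted p under 0.05). The deposited value table gave 1 for NOD ES minus mESM, and no filter and the mean of all probes gave 3 each for the interaction. Leaving out 4K and 1K gave 4 for NOD ES minus mESM, among them Lgr5, which was not well above background in either group. Leaving out 1 array at a time gave 3 to 5 for EpiSC-like lines minus NOD ES, 5 to 7 for the ES line and 3 to 6 for the iPS line minus NOD ES, 1 to 5 for EpiSC iPS minus EpiSC, 0 to 7 for EpiSC-like lines minus EpiSC, 3 to 7 for the iPS minus ES line, 2 to 6 for the interaction and, against mESM, 3 to 7 for EpiSC, 0 to 3 for NOD ES, 0 to 4 for EpiSC iPS, 2 to 5 for epiESM and 2 to 4 for the KP arrays. The counts of 0 came without passage 12 of EpiSC for EpiSC-like lines minus EpiSC (6 at an unadjusted p under 0.05 in limma) and without either mESM array for NOD ES and for EpiSC iPS (3 each). Quantile normalization and the filter at 4 arrays moved no target count by over 1.5 times. Over all genes, counts of calls (919 to 9927) moved by over 1.5 times in 11 of 12 comparisons with normexp (0 to 13084), 7 with slide as a block (0 to 7949), 9 without 4K and 1K (5745 to 12590), 6 with the mESM arrays averaged (103 to 9103) and 1 with no filter (585 against 919). The share of calls that were higher moved by over 10 points in 4 comparisons with quantile normalization, 7 with normexp and 7 with the deposited value table. With normexp it was 1.64% (55.1%) for the iPS minus ES line, 68.7% (45.1%) for the iPS line minus NOD ES, 23.3% (39.9%) for the interaction and, against mESM, 61.6% (48.6%) for EpiSC, 54.5% (65.7%) for NOD ES, 42.9% (63.6%) for EpiSC iPS and 85.7% (60%) for epiESM. With the deposited table it was 51.6% (39.5%) for the EpiSC-like ES line minus NOD ES, 43.6% (57.5%) for EpiSC iPS minus EpiSC, 51.8% (39.9%) for the interaction and, against mESM, 40.6% (65.7%) for NOD ES, 46.4% (63.6%) for EpiSC iPS, 49.1% (60%) for epiESM and 50.4% (66.5%) for the KP arrays. With quantile normalization it was 44.5% (57.5%) for EpiSC iPS minus EpiSC and, against mESM, 53.5% (65.7%) for NOD ES, 50% (63.6%) for EpiSC iPS and 56.3% (66.5%) for the KP arrays. Of the targets' single values under the alternatives other than leaving out 1 array, 681 kept direction and side of the threshold, 114 lost the call, 39 gained it, 25 that were called under neither setting changed direction and the 5 given above reversed. No paired analysis was possible because only the mESM arrays carry replicate numbers in the labels. Signal over background limits Cdx1 and Lgr5 most, well measured on 6 and 9 of 16 arrays.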

Other observations

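Genes of WNT supply differed between these cultures beside the targets. Rspo2, an R-spondin, was at least 6-fold higher in NOD ES than in mESM (adjusted p = 9.71e-05) and at least 8.3-fold higher in epiESM than in mESM (adjusted p = 0.00036), while Rspo3 was called in neither comparison. Wnt2, a ligand gene, was called higher in NOD ES, EpiSC iPS and EpiSC than in mESM, at least 5.97-fold in EpiSC. It was well above background on 1 of 3 NOD ES arrays and 1 of 2 EpiSC iPS arrays, so its size there was not measured. Jun, a gene that responds to many signals besides WNT, rose by 3.53 ± 0.19 in NOD ES, by 3.41 ± 0.21 in EpiSC iPS and by 3.72 ± 0.26 in epiESM against the same mESM arrays. Fzd9, a Frizzled receptor, fell by 1.86 ± 0.26, 1.63 ± 0.28 and 1.73 ± 0.35 in the same 3 comparisons, which share the mESM arrays.

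Between the NOD EpiSC-like lines, co-repressor genes of the TCF factors split. Tle3 rose by 2.43 ± 0.61 (adjusted p = 0.0134) in the iPS line while Tle4 fell by 1.61 ± 0.24 (adjusted p = 0.000696). Csnk1e and Dvl1, kinase and scaffold genes upstream of beta-catenin, rose by 1.58 ± 0.23 and 1.2 ± 0.26, and Apc, a destruction complex gene, fell by 1.19 ± 0.38 (adjusted p = 0.0414). The T cell markers summed to a linear level of 1.96 to 2.54 in the EpiSC-like iPS line, against 1.37 to 1.77 in the EpiSC-like ES line, and the neural markers to 11.1 to 12.5, against 10.2 to 13.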
